A study of Mus musculus with 10 samples.

Results

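The sodium-potassium ATPase is the pump that exports sodium and imports potassium across the plasma membrane, and the 4 genes described here encode subunits of it. They are *Atp1b1*, *Atp1b2* and *Atp1b3*, the beta subunits found in the Sertoli cell samples, and *Atp1a4*, the alpha subunit of sperm. They were picked by symbol, with their values in these data already known, from 17816 genes in a table of Sertoli cells and 20007 genes in a table of adult testis. Because the choice used those values, the differences of these 4 genes are given as a description, without a test. Tests are given for lists of related genes, which were also made with earlier results of these data known.

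RNA was sequenced from 2 kinds of material. The first was Sertoli cells isolated from testes 7 days after birth, cultured and passaged several times, with the adherent cells used. It comprised 2 control samples, labelled WT and described in the methods as *Rnf20*Flox/Flox, and 2 samples with a Sertoli cell knockout of the ubiquitin ligase gene *Rnf20*, written *Amh-Rnf20*-/-. In these mice Cre driven by the *Amh* promoter, which is active in Sertoli cells, removes floxed exons, so other testis cells keep the gene. The second was adult testis, with 3 samples labelled WT and 3 labelled *Rnf20* conditional knockout. The age in days, the Cre driver and the number of animals behind each adult sample are not given in the sources used here. The methods speak of 3 individuals for each day 7 genotype, whereas 2 samples of each were analysed here, and which individuals or cultures stand behind a sample is not given. The labels also name adult tissue as the grown material of every sample, those titled day 7 included, which goes against their titles and their Sertoli cell type. Errors and p-values therefore measure the spread between these samples only.

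The pump is made of a catalytic alpha subunit, which splits ATP and carries the ions, and a glycosylated beta subunit, which the alpha subunit needs to fold, to leave the endoplasmic reticulum and to reach the cell surface. The sodium gradient it maintains drives many other transporters, among them sodium-coupled carriers of amino acids, bicarbonate and protons. In the testis, alpha 4 is made in male germ cells and is needed for sperm motility. Beta subunits also take part in contacts between cells, and the beta 2 protein was first described as AMOG, the adhesion molecule on glia.

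*Atp1b1* (Entrez 11931) lies at chr1:164437099-164458355 of GRCm38.p6, on the minus strand, and its principal transcript has 6 exons. *Atp1b2* (Entrez 11932) lies at chr11:69599728-69605978, on the minus strand, and has 7 exons. A gap of 4303 bases separates it from *Shbg*, one of the Sertoli cell markers used below. *Atp1b3* (Entrez 11933) lies at chr9:96332655-96364431, on the minus strand, with 7 exons. *Atp1a4* (Entrez 27222) lies at chr1:172223508-172258424, on the minus strand, with 23 exons.

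Promoter sequences were found in RefSeq (GRCm38.p6) for 3 of the 4 genes, and none was matched for *Atp1b2*. They are shown because the starts of *Atp1b1* and *Atp1b3* are built differently from that of the germ cell gene *Atp1a4*. Each runs 5′ to 3′ along the gene's own strand, from 250 bases before to 50 bases after the start. Capitals mark GC boxes (GGGCGG, or CCGCCC on the other strand) and CCAAT boxes (CCAAT, or ATTGG on the other strand). The intervals are chr1:164458306-164458605 for *Atp1b1*, chr9:96364382-96364681 for *Atp1b3* and chr1:172258375-172258674 for *Atp1a4*.
Atp1b1: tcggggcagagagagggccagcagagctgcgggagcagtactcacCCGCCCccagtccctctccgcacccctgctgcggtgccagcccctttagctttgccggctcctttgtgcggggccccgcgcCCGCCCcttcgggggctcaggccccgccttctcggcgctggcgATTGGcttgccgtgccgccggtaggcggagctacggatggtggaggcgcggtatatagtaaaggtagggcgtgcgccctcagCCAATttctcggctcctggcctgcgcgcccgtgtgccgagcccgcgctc
Atp1b3: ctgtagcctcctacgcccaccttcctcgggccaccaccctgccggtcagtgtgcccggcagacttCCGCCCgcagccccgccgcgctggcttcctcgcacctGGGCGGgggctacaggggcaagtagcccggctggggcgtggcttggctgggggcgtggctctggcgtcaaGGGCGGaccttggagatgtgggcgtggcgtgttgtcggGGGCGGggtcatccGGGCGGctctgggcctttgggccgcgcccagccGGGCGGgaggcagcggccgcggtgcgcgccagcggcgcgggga
Atp1a4: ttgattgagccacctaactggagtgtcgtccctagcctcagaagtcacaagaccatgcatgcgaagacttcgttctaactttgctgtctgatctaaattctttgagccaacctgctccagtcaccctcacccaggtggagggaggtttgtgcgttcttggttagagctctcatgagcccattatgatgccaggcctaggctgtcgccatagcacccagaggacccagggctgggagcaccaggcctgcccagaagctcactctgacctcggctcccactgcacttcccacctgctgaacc

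The *Atp1b1* promoter was 71.0% G and C, with 31 CpG sites, 2 GC boxes and 2 CCAAT boxes. The *Atp1b3* promoter was 76.0% G and C, with 34 CpG sites and 6 GC boxes but no CCAAT box. The *Atp1a4* promoter was 55.7% G and C, held 6 CpG sites and matched neither box. Among 32851 RefSeq promoters of this length the median was 52.7% G and C with 7 CpG sites, and 91.8%, 96.9% and 58.6% of them had a lower G and C content than *Atp1b1*, *Atp1b3* and *Atp1a4*, respectively. A GC box was present in 35.7% of these promoters and a CCAAT box in 37.4%, and 1.35% held at least 6 GC boxes. A TATA box (TATAAA, present in 13.6% of promoters) and a cAMP response element (TGACGTCA, present in 1.79%) were also searched on both strands and were not matched in any of the 3 windows. The motifs do not overlap one another, and a match is a description of the letters, not a binding site.

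Some reads of these genes could have come from, or gone to, other genes. In RefSeq the last 202 bases of *Atp1b1* overlap *Nme7*, which runs on the opposite strand. GENCODE holds longer *Nme7* transcripts, and 516 of the 2550 31-base words in the principal GENCODE transcript of *Atp1b1* (20.2%) also occur in them. How the authors' counting handled strand is not given in the sources used here, and reads from the shared sequence cannot then be assigned to either gene. In *Atp1b3*, 382 of 1964 words (19.5%) occur elsewhere, 381 of them in the processed pseudogene *Gm1848*, which is listed in neither table. *Atp1a4* shared 173 of 3440 words (5.03%) with transcripts of other genes, and the pseudogene *Gm4816* lies within it. *Atp1b2* shared no word with another gene.

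The targeted gene *Rnf20*, which adds ubiquitin to histone H2B, was checked first. Its FPKM, the fragment count scaled by transcript length and library size, was 16.64 and 16.01 in the day 7 control samples, and both knockout samples were lower at 10.25 and 12.58. The log2 fold change of *Rnf20* at day 7 was -0.49 (SE 0.12, adjusted p = 0.222 by edgeR, 2 samples a group). The adult controls had 4.89, 3.32 and 4.09 FPKM, and the samples labelled knockout had 9.16, 5.76 and 9.85, so *Rnf20* was not lower in them. The adult log2 fold change was 0.12 (SE 0.27, adjusted p = 0.688 by edgeR), and it ranged from -0.08 with median-ratio scaling to 0.97 with total-count scaling. Total-count scaling and both limma fits called *Rnf20* higher in the labelled knockout samples, with adjusted p-values down to 0.0123, and the other 11 fits did not call it. The adult samples are therefore called labelled knockout throughout.

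Total counts ran from 17477268 to 17705347 in the day 7 samples and from 15431912 to 16574144 in the adult samples. Over the genes counted, chi-square divided by its degrees of freedom was 2.65 for the pair of day 7 controls and 34.3 for the pair of day 7 knockout samples, where sampling noise alone gives about 1. In adult testis these values were 13.7 to 17.6 among controls and 21.4 to 118 among labelled knockout samples, with the first labelled knockout sample apart from the other two. None of the 17 Sertoli cell markers was at 0 in a whole day 7 group. This cannot check the Sertoli cell label, since the same held for the Leydig, peritubular myoid and stromal lists. *Gata1*, among the 17, was between 0.07 and 0.49 FPKM. *Wt1*, a transcription factor of Sertoli cells, had 69.57 and 70.48 FPKM in day 7 controls and 44.17 and 52.93 in knockout samples. The day 7 samples also held markers of other cells, since 7 peritubular myoid genes summed to between 2380 and 2510 FPKM and 7 stromal genes to between 2160 and 2250 FPKM in the controls.

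*Atp1b1*, the main beta subunit of most epithelia, was the leading beta gene of control Sertoli cells. Its FPKM was 200.54 and 205.45 in the day 7 controls (203 ± 3.47, SD, n = 2) and 63.77 and 94.07 in the knockout samples (78.9 ± 21.4, SD, n = 2). Both knockout samples lay below both controls, as they did for 26.1% of all genes tested (51.0% did not overlap in either direction), and the gap to the nearest control was larger than the spread within either group. The control mean was 2.57-fold higher, and the fitted log2 fold change was -1.32 (SE 0.20). Leaving out each sample in turn gave log2 fold changes from -1.63 to -1.08. The 4 values rested on between 2584.86 and 8334.41 estimated counts.

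*Atp1b2*, the AMOG subunit, had 63.91 and 53.27 FPKM in the day 7 controls (58.6 ± 7.52, SD, n = 2) and 8.11 and 37.75 in the knockout samples (22.9 ± 21.0, SD, n = 2). Both knockout samples were again lower, but they were far apart from each other. The fitted log2 fold change of -1.32 was the same as that of *Atp1b1*, with a much wider standard error of 0.71. It was -0.60 without the first knockout sample and -2.81 without the second, so the size of the difference depended on which sample was kept.

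*Atp1b3*, a beta subunit expressed in many tissues, had 140.39 and 138.7 FPKM in the day 7 controls (140 ± 1.20, SD, n = 2) and 137.71 and 148.44 in the knockout samples (143 ± 7.59, SD, n = 2). The groups overlapped on FPKM. The log2 fold change was 0.07 (SE 0.08), and it stayed between 0.03 and 0.12 when a sample was left out. Among all 12880 genes tested at day 7, the 5th and 95th percentiles of the log2 fold change were -0.63 and 0.80, so *Atp1b1* and *Atp1b2* were below that range and *Atp1b3* was within it.

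*Atp1a4* was near the lower limit of detection in Sertoli cells. Its FPKM was 0.05 and 0 in the day 7 controls and 0.1 and 0.02 in the knockout samples, from 2, 0, 4 and 1 counts. It did not pass the filter on low values, and no fold change is given. A difference between the groups was not detectable at this depth.

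**Figure D1:**
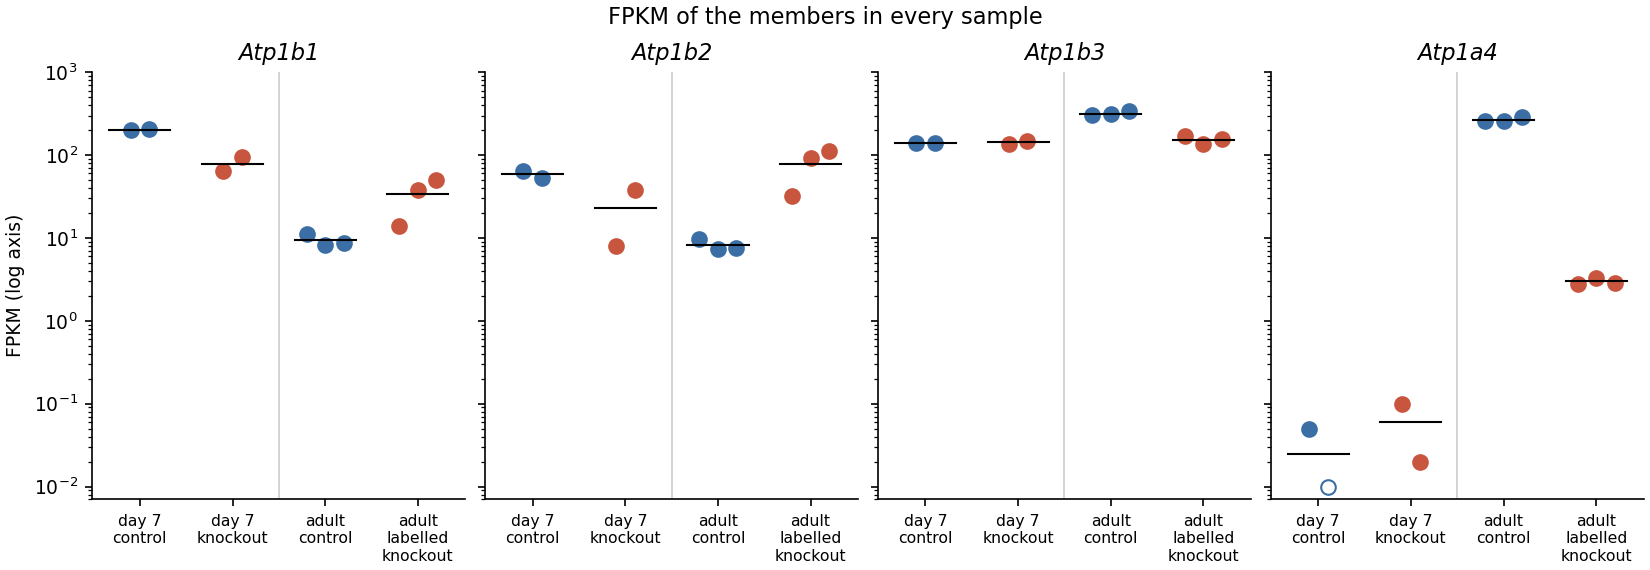
FPKM of the 4 subunit genes in every sample, on a log axis. Points are samples (blue, control; red, knockout or labelled knockout), lines are group means, and the open circle is a value of 0 drawn near the lower edge. *Atp1b1* and *Atp1b2* were lower in the day 7 knockout samples and higher on FPKM in the adult labelled knockout samples, and *Atp1a4* was between 255.31 and 290.21 in the adult controls and between 2.81 and 3.28 in the labelled knockout samples.

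The order of the 3 beta genes in Sertoli cells differed between the groups. FPKM values are per length, so each gene could be expressed as a share of the summed beta FPKM of its own sample, which does not depend on the scaling between samples. *Atp1b1* made up 49.5% and 51.7% of the beta FPKM in the day 7 controls and 30.4% and 33.6% in the knockout samples. *Atp1b3* made up 34.7% and 34.9% in the controls, against 65.7% and 53.0% in the knockout samples. The leading gene was thus *Atp1b1* in both controls and *Atp1b3* in both knockout samples. The *Atp1b2* share was 15.8% and 13.4% in the controls, against 3.87% and 13.5% in the knockout samples, so on this measure the groups overlapped. Shares are parts of the same sum, so the higher *Atp1b3* share is not a result separate from the lower *Atp1b1* share. The ratio of *Atp1b1* to *Atp1b3* was 1.43 and 1.48 in the controls, against 0.463 and 0.634 in the knockout samples.

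Summed over the beta genes, the day 7 FPKM was 405 and 397 in the controls, against 210 and 280 in the knockout samples. Both knockout samples were lower.

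No Sertoli cell marker passed the edgeR test at day 7, but more of them were lower than higher in the knockout samples. Of 16 Sertoli markers tested, 10 had both knockout samples below both controls 1 (*Rhox5*) had them above and 5 overlapped, with a median log2 fold change of -0.67, against 26.1% below and 24.8% above among all genes tested. The list summed to between 2590 and 2840 FPKM in the controls, against between 1760 and 2090 in the knockout samples. Germ cell markers were lower as well. Both knockout samples were below both controls for 11 of 14 spermatogonial markers (median log2 fold change -0.59). The list summed to between 223 and 230 FPKM in the controls, against 158 in both knockout samples. Most of this was *Uchl1*, at 164.85 and 148.82 FPKM in the controls, against 119.76 and 106.98. Both knockout samples were also below both controls for 6 of 7 spermatocyte markers tested (median -0.60). The spermatocyte list summed to 811 and 843 FPKM in the controls, against 637 and 760. Most of each sum was *Ldha*, at 793.94 and 821.87 FPKM in the controls, against 626.61 and 745.26 in the knockout samples. The spermatocyte sums thus say little about the other markers. Of 5 Leydig cell markers tested, 3 were above the controls (median 0.71). Over the same samples the 7 peritubular myoid markers and the 7 stromal markers were all above the controls, with median log2 fold changes of 0.95 and 0.97, and summed to between 4110 and 4290 and between 3370 and 3970 FPKM in the knockout samples. In bulk RNA, fewer cells of a type and less RNA per cell cannot be told apart, and the part of cell composition in the values of *Atp1b1* and *Atp1b2* was not tested.

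Set against *Wt1* in the same sample, *Atp1b1* was 2.88 and 2.92 in the controls, against 1.44 and 1.78 in the knockout samples. The same ratio for *Atp1b2* was 0.919 and 0.756 in the controls, against 0.184 and 0.713 in the knockout samples. Both ratios were lower in both knockout samples, although the second *Atp1b2* value was close to the lower control. In the first knockout sample *Atp1b1* stood at 31.4% of its control mean and *Atp1b2* at 13.8%, while the 17 Sertoli markers ranged from 3.02% to 237% with a median of 43.9%. In the second, *Atp1b1* stood at 46.3% and *Atp1b2* at 64.4%, and the markers ranged from 55.6% to 209% with a median of 80.8%. None of the 17 markers was lower than *Atp1b1* in the second knockout sample, and 8 were lower in the first. This depended on the marker chosen, since the ratio of *Atp1b1* to *Cldn11*, a tight junction gene of Sertoli cells, was 0.876 and 0.961 in the controls, against 4.55 and 0.626 in the knockout samples. The ratio of *Atp1b2* to *Cldn11* was 0.279 and 0.249 in the controls, against 0.579 and 0.251. Neither knockout value was below both controls.

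**Figure D2:**
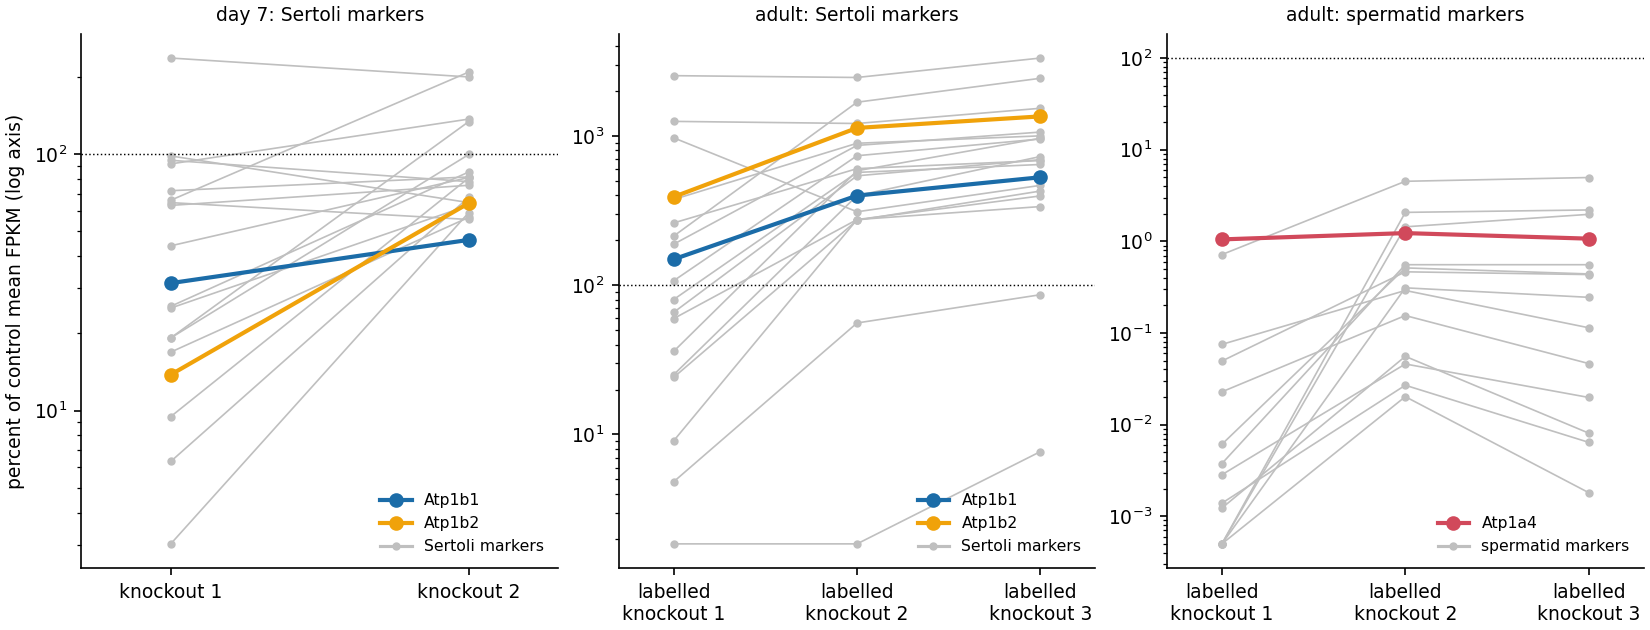
FPKM as a percent of the control mean (log axis) in each knockout or labelled knockout sample, for members (coloured) and marker genes (grey), with the dotted line at 100% and values of 0 drawn at the lower edge. *Atp1b1* and *Atp1b2* lay within the range of the Sertoli markers in the first day 7 knockout sample, and *Atp1a4* stayed between 1.05% and 1.23% in the adult samples while the spermatid markers spread over a wide range.

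Adult testis had another order of subunits. In the controls *Atp1b3* was the leading beta gene and *Atp1a4* was at a high level, with *Atp1b1* and *Atp1b2* both low. In the samples labelled knockout *Atp1a4* was nearly lost and *Atp1b3* lower, whereas *Atp1b2* was higher. On these samples the scaling matters, because the controls had TMM factors (edgeR's scaling for the makeup of the RNA) of 0.71 to 0.761 and the labelled knockout samples of 1.27 to 1.42. With total-count scaling the median gene shifted by 0.87 on the log2 scale. FPKM values below carry no such correction, and fold changes from the fit do.

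*Atp1a4* had 256.47, 255.31 and 290.21 FPKM in the adult controls (267 ± 19.8, SD, n = 3) and 2.81, 3.28 and 2.86 in the labelled knockout samples (2.98 ± 0.258, SD, n = 3). The groups were widely separated, and the 3 labelled knockout values were close together. The mean FPKM was 89.6-fold lower and the fitted log2 fold change was -7.54 (SE 0.24). Between 12799 and 14368 counts stood behind each control and 115 to 143 behind each labelled knockout value, so the remaining signal was well above the lower limit of counting. That fold change was below -6.54, the 5th percentile of all genes tested (the 95th was 3.79), and 462 of the 15919 genes tested had a more negative one.

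The remaining *Atp1a4* was 1.05%, 1.23% and 1.07% of the control mean. Most markers of spermatids, the haploid germ cells, had a smaller remainder. In the first labelled knockout sample all 13 spermatid markers were below the *Atp1a4* percentage, between 0 and 0.717% of their control means. In each of the other samples, 10 of 13 were below it, with ranges of 0.0202% to 4.52% and 0.00181% to 4.97%. Markers of spermatocytes, the germ cells in meiosis, differed from this. In the first sample 10 of 13 were below the *Atp1a4* percentage, with a range of 0 to 13.7%, but in the other samples none was, with ranges of 1.67% to 74.8% and 1.81% to 116%. Summed over the list, spermatid markers gave between 131000 and 201000 FPKM in the controls, against 4.67, 115 and 68.5 in the labelled knockout samples. *Prm1*, a protamine that packs sperm DNA, was at 0 in the first of these, and 14.5 and 1.3 in the others. All 13 spermatid markers were lowest in the first sample. *Atp1a4* was lowest there on FPKM, but in the third sample on estimated counts (115 against 120) and on TMM-scaled counts (5.27 against 5.93 CPM), and its values in the 3 samples were close together while the summed markers were not.

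The possible sources of *Atp1a4* reads other than germ cells were not tested.

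*Atp1b3* had 302.08, 312.39 and 338.01 FPKM in the adult controls (317 ± 18.5, SD, n = 3) and 169.58, 136.02 and 156.95 in the labelled knockout samples (154 ± 17.0, SD, n = 3). All labelled knockout samples were below all controls, as they were for 43.1% of the genes tested. The mean FPKM was 2.06-fold lower and the fitted log2 fold change was -1.90 (SE 0.20), while total-count scaling gave -1.05. In contrast to *Atp1a4*, a large part of the *Atp1b3* signal remained.

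*Atp1b2* had 9.75, 7.40 and 7.63 FPKM in the adult controls (8.26 ± 1.30, SD, n = 3) and 32.19, 93.00 and 111.13 in the labelled knockout samples (78.8 ± 41.3, SD, n = 3). Every labelled knockout sample was above every control on FPKM and on TMM-scaled counts, as were 42.4% of all genes tested, and 85.5% did not overlap in either direction. The mean FPKM was 9.54-fold higher, and the fitted log2 fold change was 2.38 (SE 0.44). *Atp1b1* had 11.32, 8.32 and 8.80 FPKM in the controls (9.48 ± 1.61, SD, n = 3) and 14.13, 37.75 and 50.08 in the labelled knockout samples (34.0 ± 18.3, SD, n = 3). The mean FPKM was 3.59-fold higher and the groups did not overlap on FPKM, but on TMM-scaled counts they did, because the first labelled knockout sample, at 25.9 CPM, was below the control range of 27.1 to 34.8 CPM. Its fitted log2 fold change was 0.96 (SE 0.42), and 1.45 without that sample. Both genes were lowest in the first labelled knockout sample. Among the labelled knockout samples the summed Sertoli markers were also lowest there, at 3390 FPKM against 8300 and 10000. The controls had 1290 to 1730. The summed spermatogonial, spermatocyte and spermatid markers were lowest in that sample as well. Not every Sertoli marker was, since *Inha* was highest there (765.73 FPKM against 244.87 and 368.15) and *Kitl* and *Trf* were not lowest.

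*Nme7*, with which *Atp1b1* can share reads, was lower in the labelled knockout samples. *Nme7* had 55.36, 57.91 and 60.91 FPKM in the adult controls and 14.22, 21.22 and 20.16 in the labelled knockout samples. At day 7 it was at 13.58 and 13.23 FPKM in the controls, against 10.86 and 12.41 in the knockout samples, far below *Atp1b1*.

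**Figure D3:**
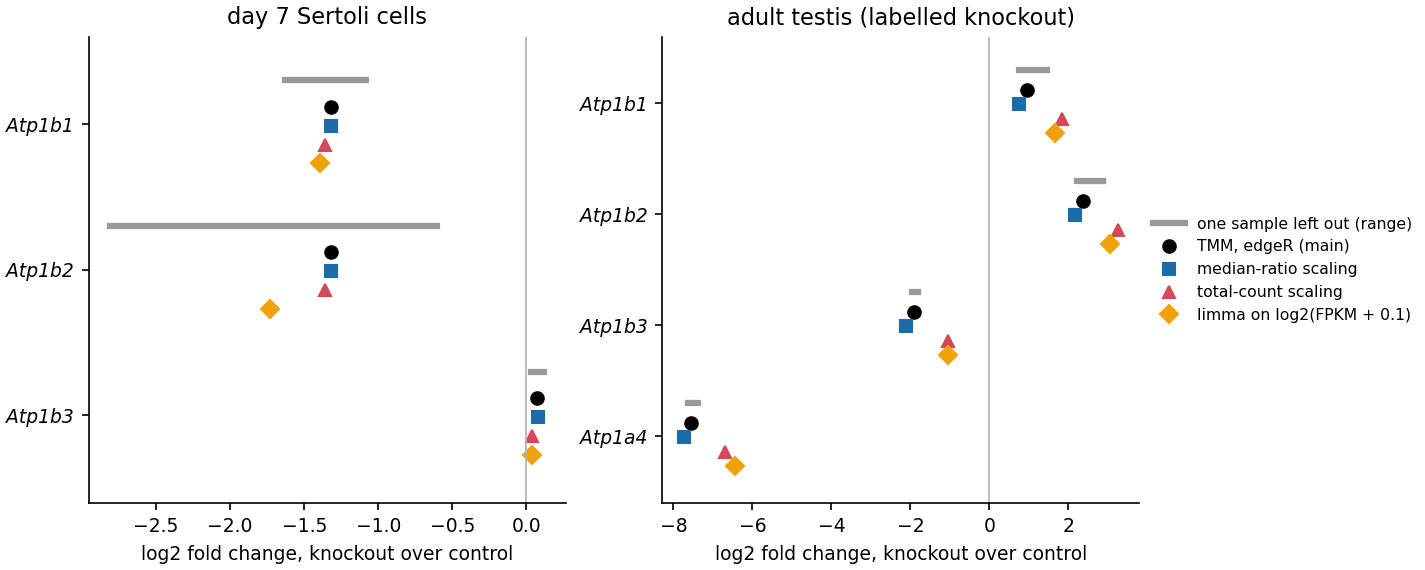
Log2 fold changes, knockout over control, of the members at day 7 (left) and in adult testis (right), with TMM scaling and edgeR, 2 other scalings and limma, and grey bars for the range when 1 sample is left out. All settings shown kept the direction of each gene, the adult values moved up with total-count scaling, and the widest bar was that of *Atp1b2* at day 7, from -2.81 to -0.60.

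Shares within each sample do not depend on scaling. Among beta genes of the adult controls, *Atp1b3* made up 93.5%, 95.2% and 95.4% of the summed FPKM. In the labelled knockout samples it made up 78.5%, 51.0% and 49.3%. The *Atp1b2* share was 2.15% to 3.02% in the controls, against 14.9%, 34.8% and 34.9% in the labelled knockout samples, and the *Atp1b1* share was 2.48% to 3.50% in the controls, against 6.54%, 14.1% and 15.7% in the labelled knockout samples. The groups did not overlap for any of the 3 shares. The shares of a sample are parts of the same sum, so a lower *Atp1b3* share raises the others, and they are not 3 separate results. *Atp1b1* and *Atp1b2* were at about the same level in the controls, with ratios of 1.16, 1.12 and 1.15, and *Atp1b2* was the higher one in the labelled knockout samples, with ratios of 0.439, 0.406 and 0.451. The summed beta FPKM was 323, 328 and 354 in the controls, against 216, 267 and 318 in the labelled knockout samples.

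**Figure D4:**
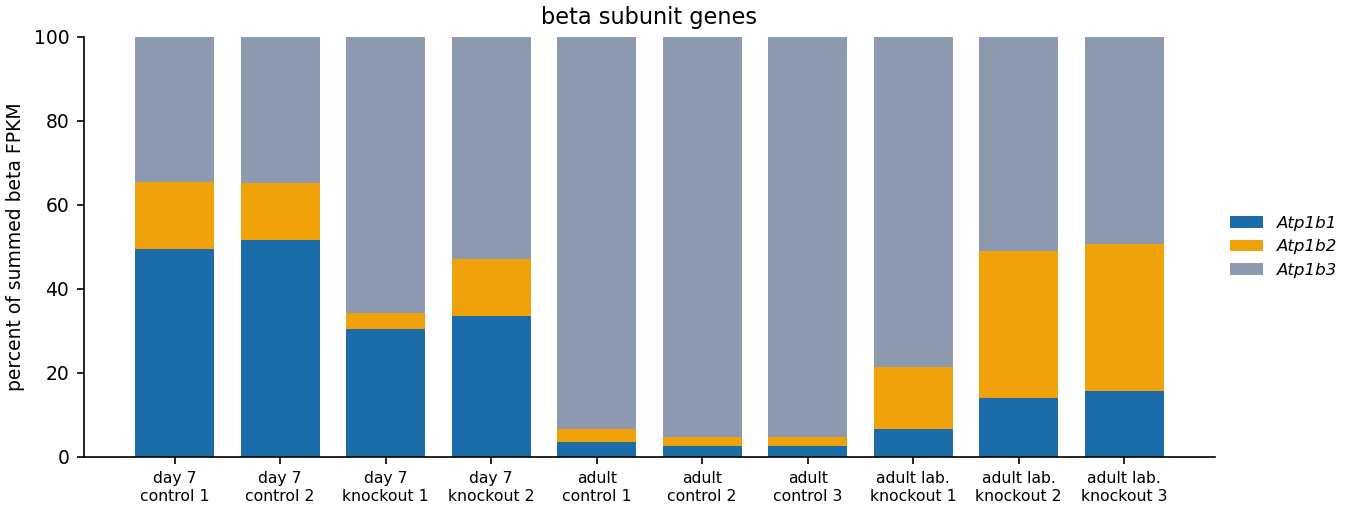
Share of each beta gene in the summed beta FPKM, in percent, for each sample. *Atp1b3* had the largest share in all samples but the day 7 controls, where *Atp1b1* led, and the *Atp1b2* share was 34.8% and 34.9% in the last 2 labelled knockout testis samples and at most 15.8% in the others.

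Mean FPKM of *Atp1b1* was highest in day 7 controls, at 203, followed by day 7 knockout samples, at 78.9, adult labelled knockout samples, at 34.0, and adult controls, at 9.48. *Atp1b2* was highest in adult labelled knockout samples, at 78.8, followed by day 7 controls, at 58.6, day 7 knockout samples, at 22.9, and adult controls, at 8.26. Its adult labelled knockout samples overlapped with the day 7 controls, and its day 7 knockout samples with the adult controls. *Atp1b3* had its highest mean in adult controls, at 317, and means of 154, 143 and 140 in the other groups, of which the adult labelled knockout samples overlapped with those of day 7. The tables were made separately, so levels set across them are side by side only.

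Set against *Wt1* in adult testis, *Atp1b1* was 1.36, 1.60 and 1.24 in the controls, against 0.788, 0.911 and 1.07 in the labelled knockout samples. *Atp1b2* was 1.17, 1.42 and 1.08 in the controls, against 1.79, 2.24 and 2.37 in the labelled knockout samples. Relative to this Sertoli marker *Atp1b1* was lower and *Atp1b2* higher, without overlap in either case. This too depended on the marker. Relative to *Cldn11*, *Atp1b1* was 0.325, 0.307 and 0.289 in the controls, against 0.43, 0.167 and 0.171 in the labelled knockout samples, so it was higher in the first and lower in the others. *Atp1b2* relative to *Cldn11* was 0.28, 0.273 and 0.251 in the controls, against 0.98, 0.41 and 0.379, and was higher in all labelled knockout samples. *Wt1* itself was 8.30, 5.21 and 7.09 FPKM in the controls, against 17.94, 41.44 and 46.88 in the labelled knockout samples. Of 17 Sertoli markers in adult testis, 7 rose, 1 fell and 9 did not pass the test, with a median log2 fold change of 1.35. Over all genes tested 40.9% rose and 40.6% fell, with a median log2 fold change of 0.01. The share of Sertoli markers that rose was thus close to that of all genes. A smaller share of them fell, and 15 of 17 had a positive log2 fold change. All 8 Leydig cell markers, all 8 macrophage markers and all 7 stromal markers rose, and the Leydig markers summed to between 4070 and 5660 FPKM in the controls, against between 65500 and 90300 in the labelled knockout samples. Spermatocyte markers went the other way. All 13 of them were below the controls, 9 of them called (median -3.53 on the log2 scale). They summed to between 8360 and 8660 FPKM in the controls, against between 108 and 746 in the labelled knockout samples. In the first labelled knockout sample *Ldha* alone had 102.35 of the 108 FPKM, so little came from the other markers. Spermatogonial markers went both ways. Of 12 tested, 5 fell, 3 rose (*Kit*, *Zbtb16* and *Etv5*) and 4 did not pass the test. The whole spermatogonial list summed to between 279 and 311 FPKM in the controls, against 62, 326 and 465 in the labelled knockout samples. These sums rested on few genes. *Uchl1* had 6.72, 189.3 and 297.01 FPKM in the labelled knockout samples, against 37.66 to 49.32 in the controls. *Ddx4* had 0.93, 21.37 and 33.6, against 169.07 to 198.93. In the first labelled knockout sample *Kit* had 36.91 FPKM and *Dazl* 0.51. The spermatogonial sums thus say little about the other markers. The part of cell composition in the adult values of *Atp1b1*, *Atp1b2* and *Atp1b3* was not tested.

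Genes related to the pump were tested from whole lists. At day 7, edgeR called 0 of 12880 genes at an adjusted p under 0.05 (0.0%), against 1997 at an unadjusted p under 0.05 and 579 called by DESeq2. No related gene passed by edgeR, and DESeq2 called *Fxyd1*, *Nkain4*, *Slc8a1* and *Slc1a5* as higher and *Fxyd5* as lower. Without the first knockout sample edgeR called 5 related genes higher and 8 lower, and without the second 10 higher and 7 lower. These fits called 2757 and 5136 of all genes tested. They leave 1 knockout sample, which is assumed to vary like the controls, and the controls were far closer to each other than the knockout samples were (chi-square per degree of freedom of 2.65 against 34.3), so these counts say little about the related genes. The adult comparison called 81.5% of the genes tested, 40.9% as higher and 40.6% as lower, and 82.6% had an unadjusted p under 0.05, so a call was common there. With total-count scaling the calls split as 64.3% higher, against 50.1% with TMM. *Atp1b4*, a related beta gene, was not listed in the day 7 table and was at most 0.10 FPKM in adult testis.

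FXYD proteins are small membrane proteins that bind the alpha and beta pair and tune its affinity for ions. In adult testis 5 of 6 tested FXYD genes rose and 1 fell, where 40.9% of all genes tested rose and 40.6% fell. In the same samples all Leydig cell, macrophage and stromal markers rose, as did 5 of 7 peritubular myoid and 5 of 7 endothelial markers. The part of cell composition in the values of the FXYD genes and the other related genes was not tested. *Fxyd1*, or phospholemman, rose from 101.06, 95.30 and 89.28 FPKM to 3330.11, 1568.86 and 1306.88 (log2 fold change 3.60, SE 0.44, adjusted p = 0.000451 by edgeR). *Fxyd3*, *Fxyd5*, *Fxyd6* and *Fxyd7* rose by 2.76, 1.66, 2.54 and 4.57 on the log2 scale. *Fxyd2*, the gamma subunit of kidney, had a log2 fold change of -2.11 (SE 0.56, adjusted p = 0.0128 by edgeR), which was -1.51 without the second control. The call was lost with total-count scaling, both limma fits and the replicate block, and the FPKM groups overlapped. *Fxyd4* did not pass the filter.

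At day 7, no FXYD gene passed by edgeR. *Fxyd1* was 17.66 and 18.48 FPKM in the controls, against 47.18 and 45.94 in the knockout samples (log2 fold change 1.41, SE 0.15, adjusted p = 0.119 by edgeR). *Fxyd5*, or dysadherin, was 107.6 and 115.81 FPKM in the controls, against 69.07 and 72.88 in the knockout samples (log2 fold change -0.62, SE 0.08, adjusted p = 0.132 by edgeR). Both genes passed with DESeq2, at adjusted p-values of 7.75e-05 and 0.00138. The groups did not overlap for either gene, as for 51.0% of all genes tested at day 7. *Fxyd7* had a log2 fold change of 1.11. That of *Fxyd6* was -0.30, but it was 0.13 without the first knockout sample and -0.91 without the second, and which of the knockout samples was left in thus set its direction. *Fxyd2* was at 0.04, and between -0.20 without the first control and 0.32 without the second.

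NKAIN proteins, which bind the beta subunit of the pump, were called in adult testis for 3 of 3 genes tested. Over all genes tested there, 81.5% were called. *Nkain4* and *Nkain2* rose by 3.53 and 1.05 on the log2 scale (adjusted p = 0.000923 and 0.0144 by edgeR). The *Nkain2* call was lost without the third control and with the replicate block. *Nkain1* had a log2 fold change of -1.10 (adjusted p = 0.0302 by edgeR), a call made in 6 of 14 fits. It was lost with total-count scaling, both limma fits and the replicate block, and without any 1 of the 3 controls or the second labelled knockout sample, and the value was -0.68 without the first labelled knockout sample. At day 7 *Nkain4* was 0.93 and 0.34 FPKM in the controls, against 11.23 and 2.22 in the knockout samples, with a log2 fold change of 3.43 (adjusted p = 0.262 by edgeR), and it was called with DESeq2. The value rested on single samples, being 1.80 without the first knockout sample, 4.17 without the second, and 4.32 and 2.88 without the first and the second control. *Nkain1* had a day 7 log2 fold change of 0.26. *Nkain3* did not pass the filter in either table.

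Of the relatives that carry other ions, *Atp4a*, the catalytic subunit of the gastric proton pump, rose by 2.10 on the log2 scale in adult testis (adjusted p = 0.000291 by edgeR) at no more than 4.73 FPKM. *Atp4b* and *Atp12a* did not pass the filter. Among calcium pumps 2 of 8 tested genes rose, 1 fell and 5 were not called, with *Atp2b1*, a plasma membrane calcium pump, having the largest rise, 2.91 on the log2 scale. *Atp2b2* fell by 7.38 from no more than 0.97 FPKM. Among the genes listed as sodium gradient users, 7 of 18 rose, 4 fell and 7 were not called. Over all genes tested in adult testis 40.9% rose and 40.6% fell. The potassium and chloride carrier *Slc12a4* was on this list and is 1 of those that rose, by 2.85. *Slc1a3*, a glutamate transporter, rose by 3.03 and *Slc9c1*, a sperm sodium and proton exchanger, fell by 5.27. At day 7 none of 4 calcium pumps and 17 sodium gradient genes was called by edgeR, whereas DESeq2 called *Slc8a1* (adjusted p = 0.0228) and *Slc1a5* (adjusted p = 0.0268), and the highest and lowest log2 fold changes were 1.22 for *Slc1a3* and -0.49 for *Slc9a2*, neither of them called by edgeR or DESeq2 with all samples.

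Over 46 related genes, 36 were tested in adult testis, with 17 called higher (47.2%), 7 lower (19.4%) and 12 not called, against 40.9% higher and 40.6% lower over all genes tested. The median log2 fold change was 0.79, against 0.01 over all genes tested. Total-count scaling gave 23 higher and 5 lower, and limma on log2(FPKM + 0.1) 22 and 5. Calls over all genes shifted up too, to 8615 higher and 4775 lower with total-count scaling and 8512 and 4887 with limma. At day 7, 28 were tested with a median of 0.05, and the groups did not overlap with 10 above and 8 below, 35.7% and 28.6% against 24.8% and 26.1% over all genes tested. 

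**Figure D5:**
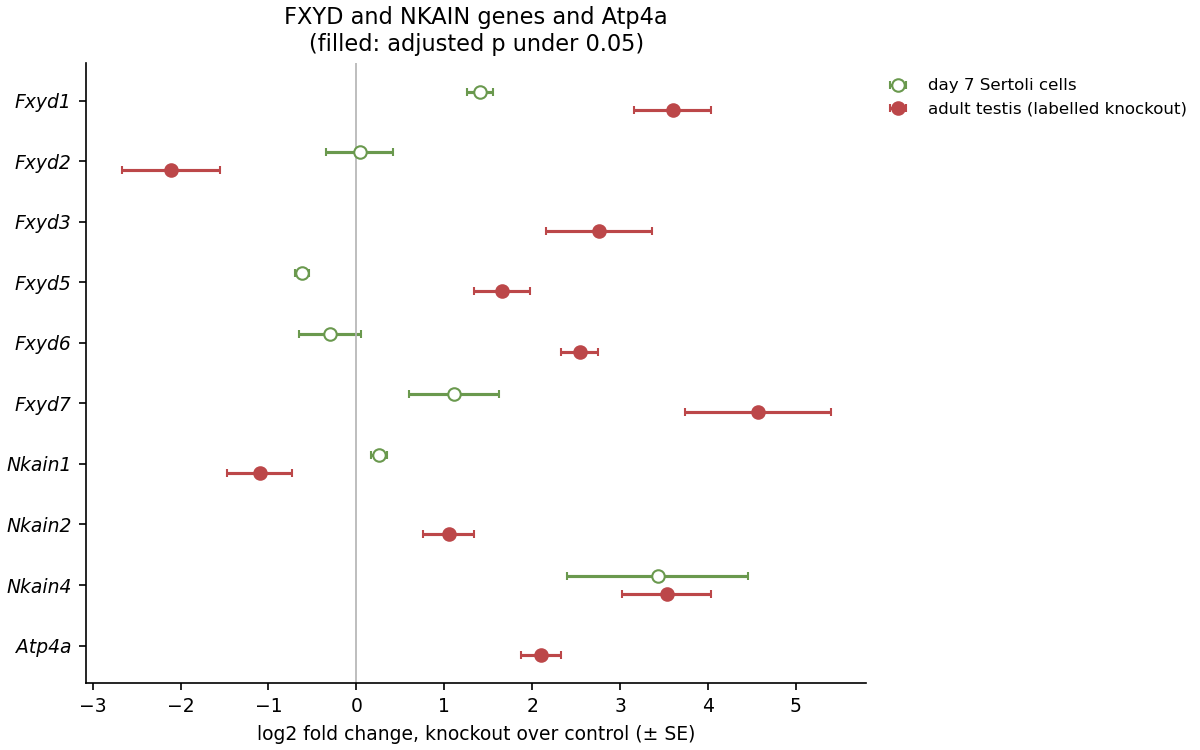
Log2 fold changes, knockout over control, with their standard errors, for FXYD and NKAIN genes and *Atp4a*, filled where the adjusted p was under 0.05. In adult testis most of the points lie to the right of 0, with *Fxyd2* and *Nkain1* to the left, and none of the day 7 points is filled.

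The genes with the profile most like each subunit gene were found by the root mean square distance between centred log2(FPKM + 0.1) profiles. At day 7, over 4 samples, *Rdh10*, which makes retinal from retinol, was nearest to *Atp1b1* at 0.06, followed by *Sorbs2*, *Prex2*, *Nfe2l3* and *Ctsw* at up to 0.09, where the median over all genes tested was 0.71. *Gstm2* and *Zdhhc2* were nearest to *Atp1b2* at 0.08, with *Slc35f2*, *Cdsn* and *Shisa8* at 0.10 and a median of 1.15. *Baz1b*, *Immt*, *Ssb*, *Dhx30* and *Bex3* were within 0.01 of *Atp1b3*, whose profile was flat. With 4 samples in each profile, near matches are common.

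In adult testis, over 6 samples, *Usp28* and *Aagab* were nearest to *Atp1b1* at 0.09, with *Gas7*, *Smpx* and *Tspan5* at up to 0.12. *Enpp1* was nearest to *Atp1b2* at 0.07, followed by *Rras2*, *Ctnnal1*, *Lsr* and *Flrt1* at up to 0.13. *Ascc1* was nearest to *Atp1b3* at 0.04, with *Lrch4*, *Mbd5*, *Csnk1d* and *Gpr137* at 0.07. *Gm20925*, *Gm9789*, *Olfr761*, *4931408C20Rik* and *Zic5* were nearest to *Atp1a4* at 0.14 to 0.18. These 5 genes are near 0 in the labelled knockout samples, where the pseudocount of 0.1 sets their profile.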

How the data were processed

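RNA-seq values of 4 day 7 Sertoli cell samples and 6 adult testis samples were analysed, each table on its own. For day 7 the authors enriched RNA with oligo(dT), sequenced it on the BGISEQ platform, mapped reads with HISAT to GRCm38.p6 and with Bowtie2 to reference genes, and calculated FPKM with RSEM. Tool versions are not given in the sources used here, and the adult table has the same columns. The authors deposited 3 kinds of value: raw estimated counts, FPKM (per transcript length and per library) and TPM, which share 1 total over samples. TMM-scaled CPM were computed here. Between 10.7% and 13.2% of genes had a count that was not whole.

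Counts were rounded and fitted with edgeR 4.0.16 (quasi-likelihood, TMM scaling, Benjamini-Hochberg adjustment over all genes tested). The test took genes that reached 0.5 FPKM in 2 or more day 7 samples or 3 or more adult samples, 12880 of 17816 and 15919 of 20007. Standard errors were derived from the fold change and its F statistic. The tests were tried on simulated counts. Alternatives were median-ratio and total-count scaling, no filter (genes with at least 1 count), DESeq2 1.42.0, limma 3.58.1 on log2(FPKM + 0.1) and log2(FPKM + 1), the replicate number as a block, TPM for shares, and each sample left out. R was 4.3.3 and Python 3.11.15. Total counts were similar within a table, and the spread between samples exceeded counting error in every pair of replicates.

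The members and the lists of genes were chosen with earlier results of these data known. The rule for named genes took the 4 members, *Rnf20*, measured genes of subunits and of FXYD, NKAIN and proton pump proteins, the largest rise and fall among calcium pumps and sodium gradient users, and the 5 nearest profiles of each member. Results for a few of these are left out here. Markers of 10 testis cell types were fixed with them. Markers named singly, *Nme7* and *Gm1848* were chosen after their values were seen. Positions and promoters are those of RefSeq (GRCm38.p6), transcripts those of GENCODE. The promoter table held no entry matched to *Atp1b2*.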

Additional observations from a re-analysis of the deposited data

Results flagged for a closer look

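For 2 members, 7 related genes and 5 Sertoli cell markers, among the members, the related genes, the Sertoli markers, *Rnf20* and *Nme7*, the day 7 and adult comparisons went in opposite directions, with all samples of a table on the side of its own difference on TMM-scaled counts. Such opposite moves were seen for 14 of the 47 genes looked at here that were tested in both tables (29.8%), against 18.3% of the 12378 genes tested in both. The members and lists were chosen with earlier results of these data known, and very small day 7 differences count as moves. The difference between the 2 comparisons was not tested, and the tables hold different material. The adult log2 fold change minus the day 7 one was 3.70 for *Atp1b2* (-1.32 at day 7 and 2.38 in adult testis) and 2.28 for *Fxyd5* (-0.62 and 1.66). It was -1.97 for *Atp1b3* (0.07 and -1.90), whose day 7 groups overlapped on FPKM. It was -1.36 for *Nkain1* (0.26 and -1.10), whose adult groups overlapped on FPKM. Among the other related genes, the difference was 3.20 for *Atp2b1*, 2.30 for *Slc8b1*, 2.25 for *Slc20a2* and 3.08 for *Slc38a2*, all with a negative day 7 value, and -5.11 for *Slc9a5* (0.32 and -4.79). The day 7 values of *Atp1b3* (0.07, SE 0.08) and *Slc20a2* (-0.08, SE 0.08) were about the size of their standard errors. For Sertoli markers it was 1.99 for *Wt1*, 3.64 for *Amh*, 3.13 for *Inha* and 2.38 for *Clu*, which were lower at day 7 and higher in adult testis, and -6.70 for *Rhox5* (1.13 and -5.57).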

How the results depend on the processing

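No alternative turned the direction of a member. At day 7, leaving out each sample gave log2 fold changes from -1.63 to -1.08 for *Atp1b1*, -2.81 to -0.60 for *Atp1b2* and 0.03 to 0.12 for *Atp1b3*. DESeq2 called 579 genes, 4 related genes higher (*Fxyd1*, *Nkain4*, *Slc8a1*, *Slc1a5*) and 1 lower (*Fxyd5*). Leaving out samples gave between 0 and 5136 calls (2757 without the first knockout sample and 5136 without the second), with 0 to 10 related genes higher and 0 to 8 lower. In adult testis, limma on log2(FPKM + 0.1) and total-count scaling gave 1.66 and 1.84 for *Atp1b1*, 3.06 and 3.25 for *Atp1b2*, -1.05 and -1.05 for *Atp1b3* and -6.44 and -6.68 for *Atp1a4*. Limma on log2(FPKM + 1) gave -1.04 for *Atp1b3* and -6.07 for *Atp1a4*. DESeq2 and median-ratio scaling both gave -2.10 for *Atp1b3*, and -7.74 and -7.73 for *Atp1a4*, whose range without 1 sample was -7.62 to -7.37. Same-numbered samples did not deviate together (r = 0.04 at day 7 and 0.02 in adult testis), so the numbers were not taken as pairs. With the replicate block the day 7 values were -1.35 for *Atp1b1*, -1.67 for *Atp1b2* and 0.07 for *Atp1b3*, the adult ones 0.83, 2.24, -1.91 and -7.54 for *Atp1a4*, and the calls 0 and 12209. *Fxyd2*, *Nkain1* and *Nkain2* lost their adult calls under the block. In all, 171 values for members, shares and counts of calls, some of them given above and those from TPM included, moved by less than the replicate SD or, for counts, by less than 1.5 times. The shares among them could not do otherwise. With 2 or 3 samples, leaving 1 out shifts a share by less than its group SD, and TPM keeps the ratios within a sample. The share values therefore say nothing about stability. Another 28 such values moved beyond these limits. For FXYD and NKAIN genes, *Atp4a* and *Rnf20*, 202 values kept their side of the threshold, 15 gained a call and 14 lost one, and none changed direction when called. *Slc6a6*, a related gene not among these, was called at day 7 in both directions, at -0.26 without the first knockout sample and 0.33 without the second, each with 1 knockout sample left. The cause of these shifts was not tested. With 2 or 3 samples a group, the spread between samples limits the comparisons, and for *Atp1a4* at day 7, with 0 to 4 counts, depth does.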
